A study of Mus musculus with 20 samples.

Results

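Mouse Hox genes, 38 of them, were described across 12 RNA libraries of bone marrow stromal cells. They were taken by name, as gene symbols made of Hoxa, Hoxb, Hoxc or Hoxd and a number, and they were 38 of the 24347 symbols listed in each library. Cluster A held 10 of them, cluster B 10, cluster C 9 and cluster D 9. Hox genes encode homeodomain transcription factors that lie in clusters, and their order along a cluster follows the order in which they are used from the head to the tail of the embryo. Genes with the same number in different clusters are paralogs. In the developing limb the high-numbered paralogs mark successive segments, with the paralogs 9 and 10 acting in the upper segment, 11 in the middle segment and 13 in the digits. Adult mesenchymal cells are known to keep part of this positional pattern.

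The cells were released from the femora and tibiae of C57BL/6 mice, bones of the hindlimb, by crushing and collagenase. CXCL12-abundant reticular (CAR) cells, a stromal population that supplies factors for blood stem cells, were sorted as CD45-CD31-Lin-PDGFRα+Sca1-. PaS cells, PDGFRα+Sca1+ mesenchymal progenitors, were sorted through the same gates as Sca1+. Each population had 3 libraries with the genotype Ebf1+/+;Prx1+/cre, called wt, and 3 with Ebf1fl/fl;Prx1+/cre, called ko. All 4 groups therefore carry the Prx1-cre transgene, which is active in limb mesenchyme, and the ko groups differ in the floxed alleles of Ebf1, a transcription factor of B cells and stroma. The labels give no age and do not state if a replicate is an animal of its own or a pool. The p-values then reflect only how far these libraries differ, which may be technical.

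Levels are in FPKM, fragments scaled to transcript length and library size, so that genes of different length can be compared. A library summed to between 491801 and 526074 FPKM. The read depth is not given, and the steps that single reads leave in low values put the libraries at 0.884 to 1.12 of their mean depth. PaS wt replicate 1 stood apart, with 24.6% of symbols listed at 0 against 33.3% to 37.0% in the other 11 libraries. Its depth by this estimate, 0.884, was the lowest, and the reason for its few zeros was not tested. Of 17 CAR marker genes all 17 were higher in CAR than in PaS cells in both genotypes, and of 18 PaS and fibroblast markers 17 were lower in both. The CAR markers were still present in PaS cells, with summed values of 7404 to 7579 FPKM in PaS wt against 23318 to 24483 in CAR wt. Both lists also shifted with genotype. In CAR ko 0 CAR markers were called higher and 7 lower, and 9 PaS markers higher and 3 lower. In PaS ko 2 CAR markers were called higher and 2 lower, and 1 PaS marker higher and 8 lower. Of all tested genes 6.51% were higher and 5.74% lower in CAR ko, and 3.41% and 4.03% in PaS ko. Ebf1 itself measured 48.1 ± 1.10 FPKM in CAR wt, 57.5 ± 1.99 in CAR ko, 55.9 ± 5.89 in PaS wt and 62.5 ± 2.18 in PaS ko (mean ± SD, n = 3). It was higher in CAR ko than in CAR wt by 0.25 ± 0.08 (adjusted p = 0.0395, limma), against the direction of the label, and did not pass in PaS cells (0.16 ± 0.08, adjusted p = 0.248). Since a value for the whole gene does not show whether the floxed exons were read, this value does not check the genotype labels. All statements about ko below rest on the labels.

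On GRCm38.p6, the assembly of mm10, the genes described in cluster A span chr6:52162417-52260880, those of cluster B chr11:96194316-96368254, cluster C chr15:102921131-103036856 and cluster D chr2:74668225-74765142. The clusters are dense, and 18 of the 38 genes overlap another RefSeq gene, 10 of them another Hox gene. Hoxa3 overlaps Hoxa4, Hoxa5 and Hoxa6, Hoxb3 overlaps Hoxb4, Hoxd3 overlaps Hoxd4, and Hoxd10 overlaps Hoxd11. Where a strand is listed, for Hoxa3, Hoxa5, Hoxa6, Hoxd3, Hoxd4, Hoxd10 and Hoxd11, the overlapping Hox genes lie on the same strand. Stranded counting would therefore not part their reads. For overlaps on opposite strands, the labels do not say that counting used strand. Values of overlapping genes may share reads and are uncertain to that extent.

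RefSeq promoter windows, from 250 bases before to 50 after a gene's start, were found for 22 of the 38 genes, in 24 windows. The 250 bases before the start are shown for 4 genes on which the results turn, chosen after their values were seen: Hoxd8 and Hoxd9, adjacent genes that were lower in CAR than in PaS cells, Hoxa5, which was higher, and Hoxa10, the highest Hox gene in every group. All are written 5′ to 3′ on the gene's own strand, with CpG dinucleotides in capitals.
Hoxd8, chr2:74704365-74704614, plus strand: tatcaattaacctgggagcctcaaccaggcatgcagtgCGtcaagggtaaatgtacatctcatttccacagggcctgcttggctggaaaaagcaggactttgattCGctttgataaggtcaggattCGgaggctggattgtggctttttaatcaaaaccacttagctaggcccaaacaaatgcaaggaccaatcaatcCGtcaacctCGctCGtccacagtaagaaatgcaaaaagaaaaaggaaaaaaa
Hoxd9, chr2:74697513-74697762, plus strand: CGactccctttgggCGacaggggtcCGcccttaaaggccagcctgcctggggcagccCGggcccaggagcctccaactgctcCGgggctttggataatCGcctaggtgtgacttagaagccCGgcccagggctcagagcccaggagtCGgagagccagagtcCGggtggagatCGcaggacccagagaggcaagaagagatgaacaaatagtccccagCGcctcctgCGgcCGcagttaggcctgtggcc
Hoxa5, chr6:52204588-52204837, minus strand: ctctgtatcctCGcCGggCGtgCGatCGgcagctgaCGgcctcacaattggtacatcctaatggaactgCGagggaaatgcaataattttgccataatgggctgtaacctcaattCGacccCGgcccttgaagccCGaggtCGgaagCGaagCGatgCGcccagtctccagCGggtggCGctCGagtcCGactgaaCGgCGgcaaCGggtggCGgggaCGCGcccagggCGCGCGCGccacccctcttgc
Hoxa10, chr6:52234940-52235189, minus strand, the start with a TATA match: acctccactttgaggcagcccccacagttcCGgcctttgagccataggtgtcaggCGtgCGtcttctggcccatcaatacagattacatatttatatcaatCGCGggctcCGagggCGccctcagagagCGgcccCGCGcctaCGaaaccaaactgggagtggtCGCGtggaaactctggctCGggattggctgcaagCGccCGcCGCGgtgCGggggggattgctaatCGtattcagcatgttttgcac
The Hoxd8 stretch holds 6 CpG sites, that of Hoxd9 13, that of Hoxa5 28 and that of Hoxa10 20.

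Over the full windows the ratio of observed to expected CpG was 0.367 for Hoxd8, 0.573 for Hoxd9, 1.02 for Hoxa5 and 0.853 for the Hoxa10 start shown. The other RefSeq start of Hoxa10 had 0.596. The median was 0.626 over the 24 Hox windows and 0.384 over all 32851 windows of the table. Median GC content was 57.7% over the Hox windows and 52.7% over all. Both strands were searched for 2 motifs. The HOX-PBX motif TGATNNAT was found in 4 of the 24 Hox windows, those of Hoxa2, Hoxb1, Hoxb8 and Hoxd11, and in 8.85% of all. The TATA motif TATAAA was found in 4 of 24, those of Hoxa10, Hoxb8, Hoxd4 and Hoxd13, and in 13.6% of all. In Hoxa10 the match reads on the strand opposite to the gene's own and begins 160 bases before the start. A match describes letters only, and no binding was measured here.

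In all 4 groups the Hox genes were led by paralog 10. Hoxa10 (chr6:52231197-52240854), which acts in the patterning of the femur and in the uterus, had the highest FPKM of the 38 in each group, and Hoxc10 (chr15:102966796-102971898), a gene of hindlimb-level identity, was the next highest. Their paralog Hoxd10 was low, with at most 2.09 FPKM in any library. Hoxa10 measured 31.3, 25.6 and 32.2 FPKM in CAR wt, 35.4, 36.7 and 33.3 in CAR ko, 35.6, 24.6 and 31.1 in PaS wt, and 33.0, 35.7 and 35.3 in PaS ko (replicates 1, 2 and 3 in turn). Hoxc10 measured 14.4, 15.7 and 15.3 FPKM in CAR wt, 15.7, 18.2 and 17.5 in CAR ko, 15.7, 15.9 and 18.0 in PaS wt, and 19.8, 19.3 and 22.1 in PaS ko. In each group every library of Hoxa10 lay above every library of Hoxc10. Summed FPKM of paralog 10 came to 34.6% ± 2.96 of the summed Hox FPKM in CAR wt, 37.5% ± 1.67 in CAR ko, 39.2% ± 3.70 in PaS wt and 41.8% ± 1.06 in PaS ko (SD, n = 3).

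**Figure D1:**
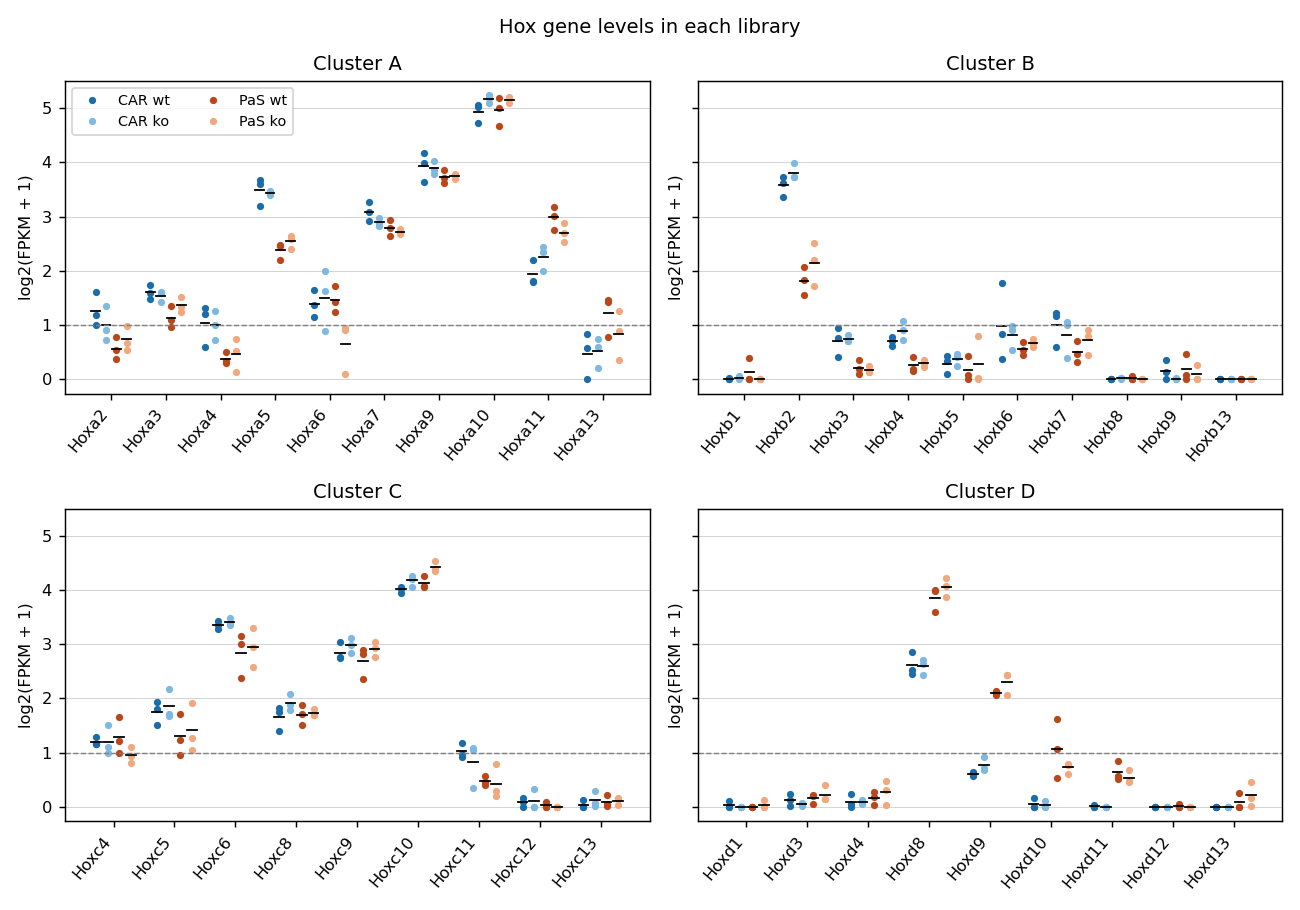
Level of each of the 38 Hox genes as log2(FPKM + 1), by cluster and paralog number, with 1 point per library, a black bar at each group mean and a dashed line at 1 FPKM. Hoxa10 and Hoxc10 are highest in all groups, cluster B has Hoxb2 as its only gene of high level, and Hoxd8 and Hoxd9 are separated between CAR and PaS cells.

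The order below these genes differed between the cell types. In CAR wt it ran Hoxa9, Hoxb2, Hoxa5, Hoxc6, Hoxa7, Hoxc9 and Hoxd8, from 14.4 ± 2.77 down to 5.18 ± 0.950 FPKM, and of these neighbours only Hoxc6 and Hoxa7 had libraries that did not overlap. In PaS wt it ran Hoxd8, Hoxa9, Hoxa11, Hoxc6, Hoxa7, Hoxc9 and Hoxa5, from 13.6 ± 2.17 down to 4.22 ± 0.524 FPKM, and only Hoxa9 and Hoxa11 did not overlap. Hoxa9, a gene of the limb and also of blood progenitors, measured 11.4, 14.9 and 16.9 FPKM in CAR wt, 12.9, 13.4 and 15.2 in CAR ko, 11.3, 13.6 and 12.1 in PaS wt, and 12.7, 12.6 and 11.9 in PaS ko. The CAR ko libraries lay above the PaS ko libraries, the other groups overlapped, and Hoxa9 passed in no contrast. Its neighbour Hoxa7 measured 6.53, 8.63 and 7.51 FPKM in CAR wt, 6.88, 6.39 and 6.12 in CAR ko, 5.96, 5.28 and 6.69 in PaS wt, and 5.38, 5.84 and 5.50 in PaS ko. The CAR ko libraries again lay above those of PaS ko, and the CAR minus PaS differences of 0.29 ± 0.13 in wt (adjusted p = 0.0816) and 0.18 ± 0.13 in ko (adjusted p = 0.303) did not pass.

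In cluster C the neighbours of Hoxc10 were lower, and Hoxc6, described further on, lay above Hoxc8 and Hoxc9 in mean level over the 12 libraries (8.01 FPKM against 2.39 and 6.31). Hoxc9, used at the thoracic and lumbar level of the trunk, measured 5.78, 7.23 and 5.67 FPKM in CAR wt, 7.68, 6.18 and 6.94 in CAR ko, 6.47, 4.14 and 6.05 in PaS wt, and 6.61, 5.82 and 7.18 in PaS ko. Hoxc8, a thoracic gene, measured 2.52, 1.62 and 2.37 FPKM in CAR wt, 2.46, 2.68 and 3.25 in CAR ko, 2.29, 2.69 and 1.84 in PaS wt, and 2.51, 2.22 and 2.23 in PaS ko. Hoxc11, a hindlimb and lumbosacral gene, measured 0.978, 1.28 and 0.895 FPKM in CAR wt, 1.08, 1.13 and 0.276 in CAR ko, 0.318, 0.487 and 0.373 in PaS wt, and 0.219, 0.152 and 0.741 in PaS ko. Neither Hoxc8 nor Hoxc9 passed in any contrast, and their groups overlapped. For Hoxc11 the wt CAR libraries lay above the wt PaS libraries, with a difference of 0.55 ± 0.22 that did not pass (adjusted p = 0.0570). Hoxc12 and Hoxc13 stayed at or below 0.264 and 0.230 FPKM. Hoxc4 and Hoxc5 lay between 0.754 and 3.49 FPKM in all 12 libraries and passed in no contrast.

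The summed level of a cluster set the cell types apart for B and D. Cluster B summed to 14.8 ± 2.55 FPKM in CAR wt and 16.5 ± 1.94 in CAR ko, against 4.23 ± 1.20 in PaS wt and 5.46 ± 1.33 in PaS ko. Cluster D went the other way, with 5.94 ± 1.02 and 5.89 ± 0.743 in CAR wt and ko against 18.9 ± 1.52 and 21.4 ± 2.24 in PaS wt and ko. For both clusters no CAR library overlapped a PaS library. The 10 genes of cluster A summed to 71.6 ± 4.67, 75.5 ± 1.39, 65.1 ± 3.56 and 67.2 ± 1.38 FPKM in the same order of groups. Cluster C summed to 37.6 ± 0.945, 41.5 ± 0.717, 34.2 ± 2.47 and 39.2 ± 3.80 FPKM. The 38 genes together came to 129.9 ± 6.00, 139 ± 0.747, 123 ± 4.89 and 133 ± 2.15 FPKM (SD, n = 3 each). This total was higher in every ko library than in every wt library of the same cell type, at 138.6 to 140.0 against 123.3 to 135.0 FPKM in CAR and 131.0 to 135.3 against 116.9 to 125.5 in PaS cells. Much of that difference lay in paralog 10, which summed to 44.9 ± 3.23 FPKM in CAR wt and 52.3 ± 2.33 in CAR ko. In PaS cells paralog 10 summed to 48.2 ± 6.32 FPKM in wt and 55.7 ± 2.30 in ko. Of the 21 Hox genes tested below, 11 had a higher and 10 a lower estimate in CAR ko. In PaS ko 15 were higher and 6 lower, and no gene was called between genotypes. By paralog number, paralogs 1 to 6 made up 33.3% ± 1.89 and 32.4% ± 0.961 of the Hox sum in CAR wt and ko, and 17.4% ± 1.40 and 17.2% ± 1.87 in PaS wt and ko. Within this share paralogs 2 and 5 made up 9.55% and 9.97% of the Hox sum in CAR wt, against 2.49% and 4.80% in PaS wt. These sums are descriptions and were not tested.

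**Figure D2:**
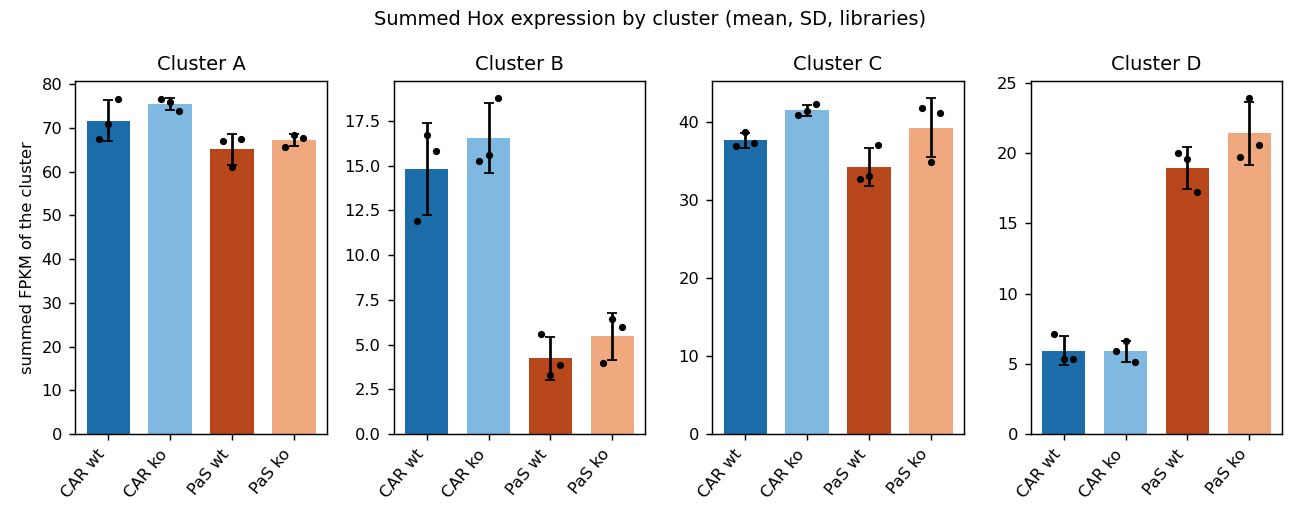
Summed FPKM of the Hox genes of each cluster, with bars at the mean of 3 libraries, error bars of 1 SD and 1 point per library. Each panel has its own vertical axis from 0. Cluster B is higher in CAR cells (14.8 and 16.5 FPKM) than in PaS cells (4.23 and 5.46), and cluster D is lower (5.94 and 5.89 against 18.9 and 21.4). Most of the cluster B sum is Hoxb2 and most of the cluster D sum is Hoxd8.

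For the tests, 21 of the 38 genes reached 1 FPKM in at least 3 of the 12 libraries: the 10 of cluster A, 7 of cluster C, Hoxb2 and Hoxb7 of cluster B, and Hoxd8 and Hoxd9 of cluster D. Of the 17 others, 14 never reached 1 FPKM and Hoxb13 was listed at 0 in every library. Just inside this limit lay Hoxa2, at 1 FPKM in 4 libraries, and Hoxa4, Hoxa13, Hoxb7 and Hoxc11, in 3. Just outside lay Hoxd10, in 2, and Hoxb4 and Hoxb6, in 1. Hoxa2, Hoxa4, Hoxb7 and Hoxc11 were let in by CAR libraries only, and Hoxa13 and Hoxd9 by PaS libraries only, so counts over the tested genes are given as a description of the list. Differences are on the log2(FPKM + 1) scale, which understates the change of low genes. They are given as estimate ± standard error from limma, and calls rest on a Benjamini-Hochberg adjusted p under 0.05 across the 12938 genes tested.

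Between CAR wt and PaS wt, 10 of the 21 tested Hox genes were called, 6 higher in CAR cells and 4 lower. Over all tested genes 43.2% were called, 20.5% higher and 22.7% lower, so the share among Hox genes was near that of all genes. The median difference was 0.20 over the tested Hox genes and 0.00 over all tested genes. Between CAR ko and PaS ko, which share no library with the wt pair, 5 of 21 were called, 3 higher and 2 lower, against 36.9% of all genes. There 17% of all genes were higher and 19.8% lower, and the median was 0.18 over the Hox genes. Called in both genotypes were Hoxa5 and Hoxb2, higher in CAR cells, and Hoxd8 and Hoxd9, lower. Among all tested genes 11.9% were called higher in both and 15.6% lower in both. All 6 CAR libraries lay above all 6 PaS libraries for Hoxa5 and Hoxb2 and below them for Hoxa11, Hoxd8 and Hoxd9, patterns held by 11.9% and 15.3% of all tested genes. In these bulk libraries fewer cells of a type and less RNA per cell cannot be told apart.

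By position, the genes called higher in CAR wt were Hoxa2, Hoxa3, Hoxa4, Hoxa5, Hoxb2 and Hoxc6, and those called lower were Hoxa11, Hoxa13, Hoxd8 and Hoxd9. Of these, Hoxa2, Hoxa4, Hoxa13 and Hoxd9 could be tested through the higher cell type alone, so the filter favoured their direction, and the calls that do not rest on it are Hoxa3, Hoxa5, Hoxb2 and Hoxc6, higher, and Hoxa11 and Hoxd8, lower. In the ko pair the genes called were Hoxa5, Hoxa6 and Hoxb2, higher, and Hoxd8 and Hoxd9, lower. The estimates differed in sign between the genotypes for Hoxa6, Hoxa10, Hoxc4 and Hoxc8.

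**Figure D3:**
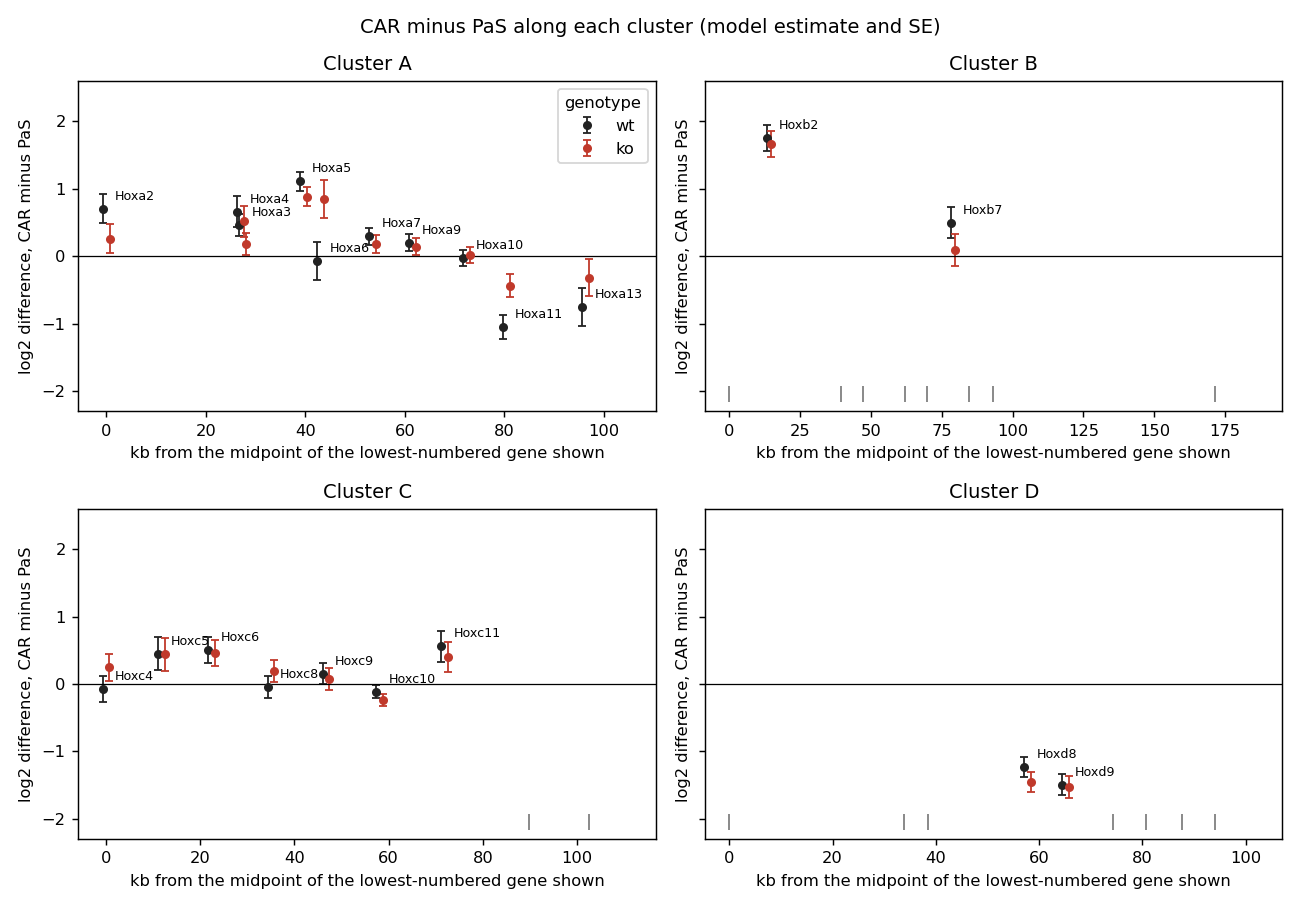
Difference between CAR and PaS cells on the log2(FPKM + 1) scale, with its standard error, for each tested Hox gene against its distance in kb from the lowest-numbered gene shown (wt black, ko red, grey ticks for genes under the filter). In cluster A the wt estimates include 0.70 at Hoxa2, 1.11 at Hoxa5, -0.08 at Hoxa6, -1.05 at Hoxa11 and -0.75 at Hoxa13. The ko estimates of these genes are 0.26, 0.88, 0.85, -0.44 and -0.32 in the same order. Both tested genes of cluster D lie below 0. Hoxa2 passed the filter through CAR libraries only, and Hoxa13 and Hoxd9 through PaS libraries only, which favoured their direction.

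Hoxb2 (chr11:96351632-96354020), known for its part in hindbrain segments, had the largest increase in CAR cells of the tested Hox genes. It measured 9.26, 11.3 and 12.3 FPKM in CAR wt, 12.3, 12.2 and 14.8 in CAR ko, 3.21, 1.95 and 2.54 in PaS wt, and 2.29, 4.68 and 3.60 in PaS ko. Every CAR library lay above every PaS library. The difference was 1.75 ± 0.19 in wt (adjusted p = 1.9e-06) and 1.67 ± 0.19 in ko (adjusted p = 3.5e-06). Hoxa5 (chr6:52201754-52204587), needed for lung and axial skeleton formation, measured 8.12, 11.2 and 11.8 FPKM in CAR wt, 10.1, 9.58 and 9.69 in CAR ko, 3.61, 4.49 and 4.55 in PaS wt, and 5.24, 4.30 and 5.02 in PaS ko. The lowest CAR library, at 8.12 FPKM, was above the highest PaS library, at 5.24. The difference was 1.11 ± 0.14 in wt (adjusted p = 1.1e-05) and 0.88 ± 0.14 in ko (adjusted p = 0.00012).

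Other anterior genes of cluster A were low in both cell types. Hoxa2, which patterns the hindbrain and the skeleton of the ear and jaw arches, measured 2.05, 1.26 and 1.01 FPKM in CAR wt, 1.54, 0.651 and 0.887 in CAR ko, 0.291, 0.715 and 0.456 in PaS wt, and 0.600, 0.462 and 0.966 in PaS ko. In wt the groups did not overlap, with a difference of 0.70 ± 0.22 (adjusted p = 0.0159), and in ko they did, with 0.26 ± 0.22 (adjusted p = 0.386). The wt call was lost without CAR wt replicate 1 (adjusted p = 0.0866) and without PaS wt replicate 1 (0.0631).

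Hoxa3, a gene of thymus and parathyroid formation that overlaps Hoxa4, Hoxa5 and Hoxa6, measured 2.35, 2.00 and 1.80 FPKM in CAR wt, 2.02, 1.70 and 2.05 in CAR ko, 0.949, 1.55 and 1.13 in PaS wt, and 1.52, 1.36 and 1.88 in PaS ko. The wt groups did not overlap and the ko groups did. Its difference was 0.47 ± 0.16 in wt (adjusted p = 0.0302) and 0.18 ± 0.16 in ko (adjusted p = 0.434). The wt call was lost without CAR wt replicate 1 or 2 or PaS wt replicate 1 or 3, at adjusted p = 0.108, 0.0558, 0.112 and 0.0765, and when only the groups compared were fitted (0.0596). Hoxa4, a gene of the neck vertebrae, measured 1.31, 1.50 and 0.514 FPKM in CAR wt, 0.991, 1.38 and 0.660 in CAR ko, 0.414, 0.263 and 0.236 in PaS wt, and 0.445, 0.684 and 0.101 in PaS ko. The wt groups were apart and the ko groups overlapped. In wt it differed by 0.66 ± 0.23 (adjusted p = 0.0276), a call lost without PaS wt replicate 2 (0.0637) or 3 (0.0735), and in ko by 0.52 ± 0.23 (adjusted p = 0.0888). Hoxc6, of the upper thoracic level, measured 8.68, 9.75 and 9.21 FPKM in CAR wt, 9.22, 9.44 and 10.2 in CAR ko, 4.22, 7.89 and 6.99 in PaS wt, and 8.82, 5.02 and 6.71 in PaS ko. All wt CAR libraries were above all wt PaS libraries, but the difference of 0.51 ± 0.19 (adjusted p = 0.0439) was lost in 8 of the 12 fits that leave out a library. It fell to 0.28 (adjusted p = 0.23) without PaS wt replicate 1, the lowest of its group, and lay between 0.0524 and 0.108 in adjusted p in the other 7. The call was also lost without the filter on low values (adjusted p = 0.103) and with the replicate number as a block (0.0590). In ko the difference of Hoxc6 was 0.46 ± 0.19 (adjusted p = 0.0725). By contrast, Hoxb2 and Hoxa5 held their calls in every alternative fit of both pairs.

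Hoxa6, which overlaps Hoxa3, was called in ko and not in wt, with an interaction that did not pass (0.93 ± 0.40, adjusted p = 0.198). It measured 1.23, 2.12 and 1.57 FPKM in CAR wt, 2.09, 2.97 and 0.864 in CAR ko, 1.36, 1.70 and 2.30 in PaS wt, and 0.934, 0.0721 and 0.876 in PaS ko. CAR ko replicate 3 lay below 2 of the PaS ko libraries, so the groups overlapped. The difference was 0.85 ± 0.28 in ko (adjusted p = 0.0256) and -0.08 ± 0.28 in wt (adjusted p = 0.851). The ko call was lost without CAR ko replicate 1 (0.0771) or 2 (0.131) or without PaS ko replicate 2 (0.131), the library at 0.0721 FPKM, and also without the filter (0.0725) and with library weights (0.0541).

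Lower in CAR cells were the adjacent genes Hoxd8 (chr2:74704615-74707933) and Hoxd9 (chr2:74697763-74700208), whose promoter stretches are shown above. Hoxd8, an early gene of the limb bud and trunk, measured 6.26, 4.48 and 4.79 FPKM in CAR wt, 5.25, 5.50 and 4.40 in CAR ko, 14.7, 14.9 and 11.1 in PaS wt, and 13.7, 17.6 and 15.8 in PaS ko. Hoxd9, which acts with Hoxa9 in the upper limb segment, measured 0.567, 0.504 and 0.480 FPKM in CAR wt, 0.609, 0.900 and 0.652 in CAR ko, 3.27, 3.19 and 3.38 in PaS wt, and 4.40, 4.43 and 3.16 in PaS ko. For both genes every CAR library lay below every PaS library. Hoxd8 differed by -1.24 ± 0.15 in wt (adjusted p = 5.6e-06) and by -1.46 ± 0.15 in ko (adjusted p = 9.5e-07). Hoxd9 differed by -1.50 ± 0.16 in wt (adjusted p = 1.2e-06) and by -1.53 ± 0.16 in ko (adjusted p = 1.0e-06). Both genes held their calls in every fit in which they were tested. Hoxd9 passed the filter through PaS libraries only, which favoured its direction, and it was not tested with the filter at 5 FPKM.

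Hoxa11, which shapes the middle limb segment, and Hoxa13, which shapes the digits, were also lower in CAR wt. Hoxa11 (chr6:52242105-52245810) measured 2.51, 3.58 and 2.46 FPKM in CAR wt, 4.11, 3.00 and 4.42 in CAR ko, 5.75, 7.11 and 8.09 in PaS wt, and 5.52, 6.35 and 4.75 in PaS ko. The CAR libraries, at most 4.42 FPKM, lay below the PaS libraries, at least 4.75 FPKM. The difference was -1.05 ± 0.17 in wt (adjusted p = 0.00013) and -0.44 ± 0.17 in ko (adjusted p = 0.0589). The interaction, which tests whether these differences are unequal, was 0.61 ± 0.24 (adjusted p = 0.166) and did not pass. Hoxa13 measured 0.482, 0 and 0.782 FPKM in CAR wt, 0.516, 0.153 and 0.679 in CAR ko, 1.69, 1.74 and 0.724 in PaS wt, and 0.282, 0.848 and 1.40 in PaS ko. Its groups overlapped, and the wt difference of -0.75 ± 0.28 (adjusted p = 0.0381) was lost without CAR wt replicate 1 (0.0612) or without CAR wt replicate 2 (-0.52, adjusted p = 0.168), the library listed at 0. It was also lost with a pseudocount of 0.1 (adjusted p = 0.0586), no filter (0.0821), quantile normalization (0.0927) and library weights (0.0629).

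Of the 17 genes under the filter, 4 kept their CAR and PaS libraries apart. Hoxb3 and Hoxb4, neighbours of Hoxb2 that overlap each other, were higher in all 6 CAR libraries. Hoxd10 and Hoxd11, neighbours of Hoxd9 that also overlap each other, were lower in all 6. Among all genes under the filter and above 0 somewhere, 0.907% had all CAR libraries above and 2.25% had them below. Hoxb3 measured 0.693, 0.926 and 0.330 FPKM in CAR wt, 0.624, 0.765 and 0.631 in CAR ko, 0.275, 0.0749 and 0.141 in PaS wt, and 0.178, 0.0915 and 0.101 in PaS ko. Hoxb4, known for its use in expanding blood stem cells, measured 0.719, 0.535 and 0.627 FPKM in CAR wt, 0.647, 0.868 and 1.10 in CAR ko, 0.331, 0.148 and 0.114 in PaS wt, and 0.284, 0.231 and 0.171 in PaS ko. Hoxd10 measured 0.125, 0 and 0 FPKM in CAR wt, 0, 0.0776 and 0 in CAR ko, 1.09, 0.447 and 2.09 in PaS wt, and 0.717, 0.530 and 0.732 in PaS ko. Hoxd11, the partner of Hoxa11 in the middle limb segment, measured 0, 0.0242 and 0 FPKM in CAR wt, 0, 0 and 0 in CAR ko, 0.431, 0.792 and 0.484 in PaS wt, and 0.389, 0.609 and 0.375 in PaS ko. These levels were low, with Hoxd11 listed at 0 in 5 of the 6 CAR libraries and Hoxd10 in 4. In a fit without the filter all 4 passed in both genotypes, and since they were singled out for this separation the values are given as a description. The wt differences were 0.49 for Hoxb3 (adjusted p = 0.0105), 0.44 for Hoxb4 (0.00623), -1.02 for Hoxd10 (0.00429) and -0.63 for Hoxd11 (0.00022). The ko differences were 0.57 for Hoxb3 (0.00482), 0.60 for Hoxb4 (0.00105), -0.69 for Hoxd10 (0.0369) and -0.54 for Hoxd11 (0.00073).

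**Figure D4:**
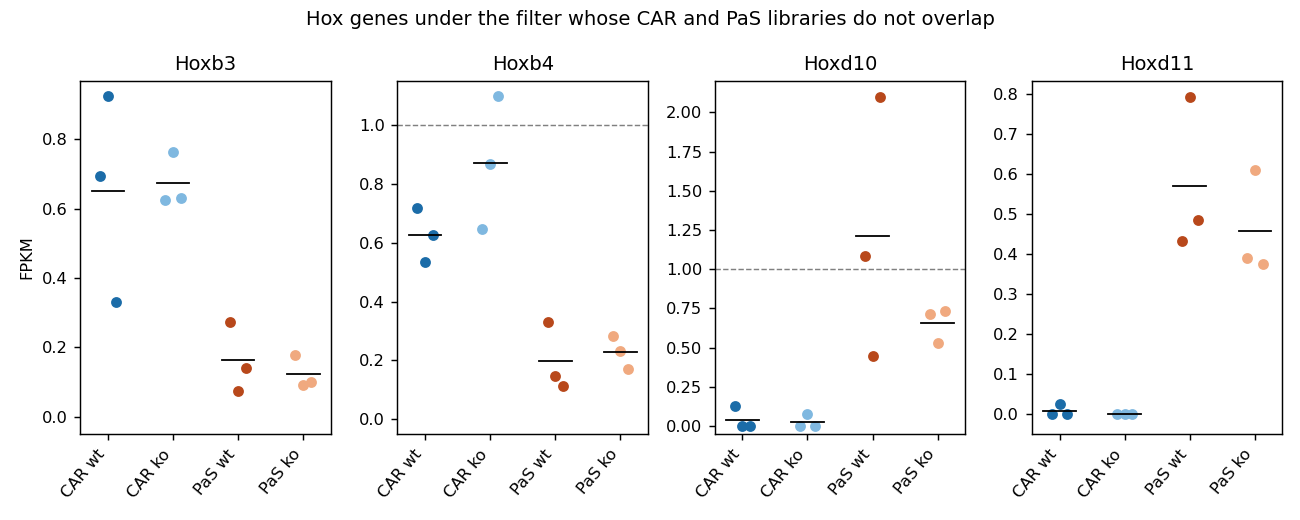
FPKM of Hoxb3, Hoxb4, Hoxd10 and Hoxd11 in each library by group, with black bars at group means and a dashed line at 1 FPKM where the axis reaches it. Hoxb3 and Hoxb4 are higher in all 6 CAR libraries and Hoxd10 and Hoxd11 are lower in all 6, with Hoxd11 at 0 in 5 CAR libraries.

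The other genes of clusters B and D stayed lower still or overlapped. Hoxb7, of the trunk, measured 0.502, 1.25 and 1.35 FPKM in CAR wt, 0.307, 0.996 and 1.08 in CAR ko, 0.385, 0.254 and 0.628 in PaS wt, and 0.367, 0.747 and 0.874 in PaS ko, and its differences of 0.50 ± 0.23 in wt (adjusted p = 0.0999) and 0.09 ± 0.23 in ko (adjusted p = 0.802) did not pass. Hoxb6, also of the trunk and under the filter, measured 0.294, 2.42 and 0.776 FPKM in CAR wt, 0.987, 0.456 and 0.887 in CAR ko, 0.612, 0.449 and 0.359 in PaS wt, and 0.595, 0.680 and 0.516 in PaS ko. It was under 1 FPKM in all libraries but CAR wt replicate 2, and its groups overlapped. Hoxb1, Hoxb5, Hoxb8 and Hoxb9 reached at most 0.318, 0.739, 0.0377 and 0.389 FPKM. Hoxd1, Hoxd3, Hoxd4, Hoxd12 and Hoxd13 reached at most 0.0949, 0.324, 0.402, 0.0394 and 0.374 FPKM. Hoxd13, a main gene of the digits, was above 0 in PaS libraries only, at 0.202, 0 and 0 FPKM in PaS wt and 0.121, 0.0160 and 0.374 in PaS ko. Its only PaS wt value above 0 was in replicate 1, the library with the fewest zeros. Values this low rest on few reads.

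None of the Hox genes described was called between genotypes. In CAR cells 0 of the 21 tested genes passed, against 12.3% of all tested genes, 6.51% higher in ko and 5.74% lower. In PaS cells 0 of 21 passed, against 7.44% of all, 3.41% higher and 4.03% lower. The interaction between genotype and cell type also gave 0 of 21, against 6.58% of all, 3.32% above 0 and 3.26% below. At an unadjusted p under 0.05, limma counted 0 genes in CAR cells, 2 in PaS cells and 2 in the interaction. The share of all tested genes under that limit is not given here, so these counts cannot be read as many or few. The counts of called Hox genes stayed at 0 in every alternative fit. The median difference between ko and wt was 0.05 over the tested Hox genes in CAR cells and 0.11 in PaS cells, with 0.01 and 0.00 over all genes.

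The 95% intervals of the 21 genotype differences ran from -0.73 to 0.71 in CAR cells and from -1.41 to 0.73 in PaS cells. On the log2(FPKM + 1) scale a gene of low level has little room to fall, so a narrow interval of such a gene says little about its relative change. Hoxa6 lay at 1.36, 1.70 and 2.30 FPKM in PaS wt and 0.934, 0.0721 and 0.876 in PaS ko, without overlap. Its difference between ko and wt was -0.81 ± 0.28 (interval -1.41 to -0.21, adjusted p = 0.105), and the interaction was 0.93 ± 0.40 (adjusted p = 0.198). Hoxc10 had the smallest adjusted p in PaS cells, with ko libraries at 19.8, 19.3 and 22.1 FPKM all above wt libraries at 15.7, 15.9 and 18.0. That difference was 0.29 ± 0.10 (interval 0.08 to 0.49, adjusted p = 0.0883). In CAR cells the smallest adjusted p was that of Hoxa10, which differed by 0.24 ± 0.12 in CAR and 0.20 ± 0.12 in PaS cells (adjusted p = 0.223 and 0.409).

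**Figure D5:**
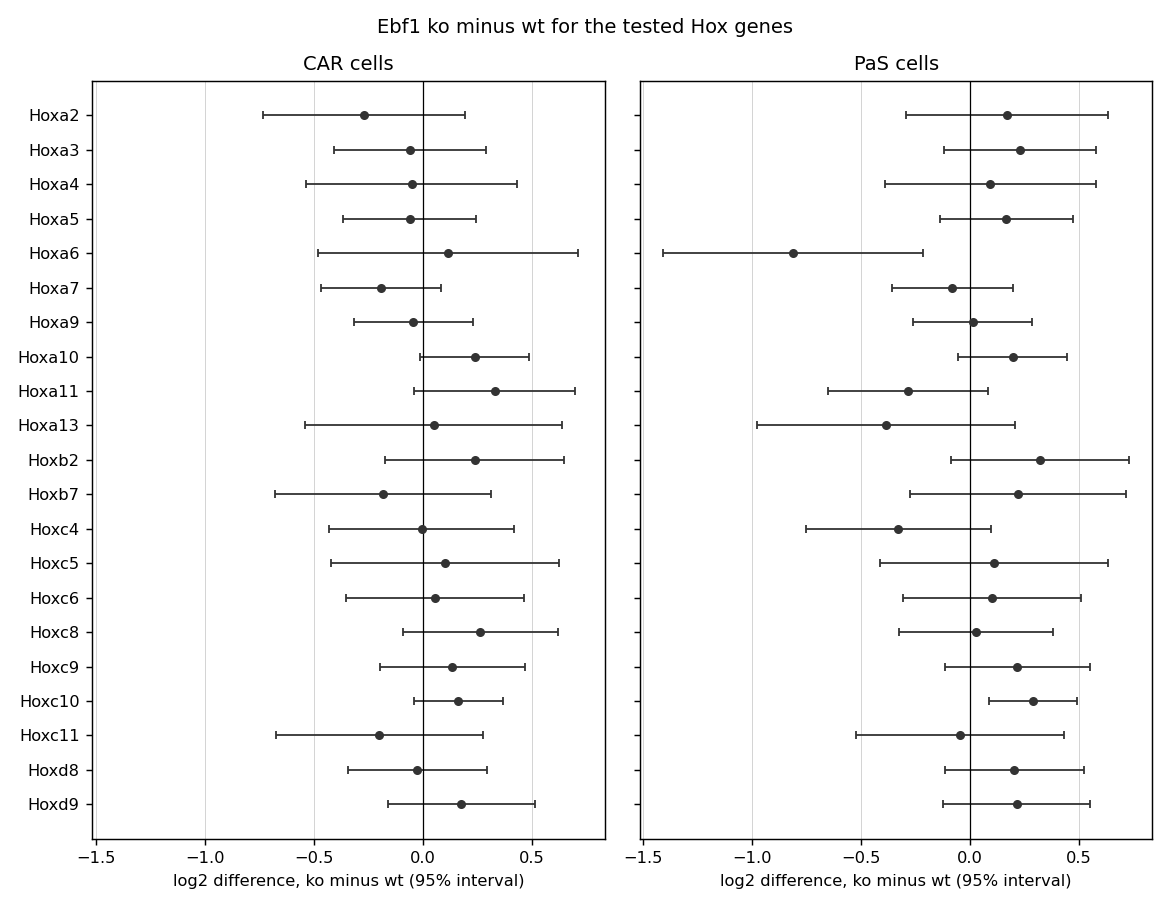
Difference between Ebf1 ko and wt on the log2(FPKM + 1) scale for the 21 tested Hox genes in CAR and in PaS cells, with 95% intervals from limma. No gene passed at an adjusted p under 0.05, and Hoxa6 in PaS cells has the widest departure, at -0.81.

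Noncoding genes of the clusters were measured beside the Hox genes. Hotairm1, a long noncoding RNA of cluster A, measured 34.3, 35.8 and 38.8 FPKM in CAR wt, 28.3, 39.9 and 36.7 in CAR ko, 12.2, 6.93 and 15.0 in PaS wt, and 18.0, 15.1 and 21.5 in PaS ko. All CAR libraries were above all PaS libraries, and it differed by 1.65 ± 0.20 in wt (adjusted p = 6.7e-06) and 0.91 ± 0.20 in ko (adjusted p = 0.00211). Hoxa11os, transcribed opposite to Hoxa11, measured 1.02, 0.973 and 1.41 FPKM in CAR wt, 2.05, 1.78 and 2.06 in CAR ko, 4.62, 5.18 and 5.97 in PaS wt, and 5.06, 4.68 and 4.33 in PaS ko. Like Hoxa11 it was lower in all CAR libraries, by -1.55 ± 0.15 in wt (adjusted p = 3.9e-07) and -0.94 ± 0.15 in ko (adjusted p = 9.5e-05). In CAR cells it rose in ko by 0.48 ± 0.15 (adjusted p = 0.0468), while Hoxa11 itself differed by 0.33 ± 0.17 (adjusted p = 0.259). Without strand, reads of Hoxa11 and Hoxa11os cannot be told apart where they overlap. Hoxaas3 and Mira, also in cluster A, passed in no contrast. Hottip, Hotair, Haglr and Hoxd3os1 reached at most 0.188, 0.682, 0.259 and 0.357 FPKM.

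HOX proteins bind DNA with cofactors of the PBX, MEIS and PKNOX families. Of 8 such genes 7 were tested. Between CAR wt and PaS wt 3 were higher and none lower, with a median of 0.09, and in the ko pair 3 were higher and none lower, with a median of 0.41. Over all tested genes 43.2% were called in the wt pair and 36.9% in the ko pair. Pbx2 measured 6.94 ± 0.213 FPKM in CAR wt, 5.32 ± 0.810 in CAR ko, 4.36 ± 0.460 in PaS wt and 3.73 ± 0.316 in PaS ko, and was higher in CAR cells by 0.57 ± 0.13 in wt (adjusted p = 0.00277) and 0.41 ± 0.13 in ko (adjusted p = 0.0242). Pknox2 measured 11.6 ± 0.750 FPKM in CAR wt, 9.01 ± 1.41 in CAR ko, 6.94 ± 1.17 in PaS wt and 5.88 ± 1.10 in PaS ko, and was higher by 0.68 ± 0.15 (adjusted p = 0.00186) and 0.55 ± 0.15 (adjusted p = 0.00960). Meis3 was also higher in both. By genotype, Meis1, a partner of HOX proteins in limb and blood, rose in CAR ko by 0.57 ± 0.15 (adjusted p = 0.0165), from 6.13 ± 0.422 to 9.78 ± 2.50 FPKM, and was the 1 gene of the list called there, against 12.3% of all tested genes. No gene of this list was called in PaS cells or in the interaction.

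Other transcription factors of limb patterning were read beside the Hox genes. Pitx1, which specifies the hindlimb, measured 4.76 ± 0.678 FPKM in CAR wt, 5.45 ± 0.217 in CAR ko, 5.33 ± 0.385 in PaS wt and 5.44 ± 1.16 in PaS ko and passed in no contrast. Tbx4, its hindlimb partner, measured 1.32 ± 0.266 FPKM in CAR wt, 1.67 ± 0.270 in CAR ko, 7.97 ± 1.22 in PaS wt and 7.73 ± 1.20 in PaS ko, lower in CAR cells by -1.95 ± 0.16 in wt (adjusted p = 7.7e-08) and -1.70 ± 0.16 in ko (adjusted p = 4.2e-07). Tbx5, the forelimb counterpart, reached at most 0.780 FPKM. Of the 25 tested genes of this list of 32, 8 were higher and 9 lower in CAR wt, and 8 higher and 10 lower in CAR ko, with a median of -0.14 in both pairs. The shares over all tested genes were 20.5% higher and 22.7% lower in wt, and 17% and 19.8% in ko. Higher in CAR cells was Tbx2, at 18.2 ± 0.627 FPKM in CAR wt, 25.3 ± 1.32 in CAR ko, 4.07 ± 0.343 in PaS wt and 5.30 ± 0.513 in PaS ko. Lower were Osr2, at 5.46 ± 0.0729 FPKM in CAR wt, 9.70 ± 1.09 in CAR ko, 81.5 ± 3.54 in PaS wt and 69.4 ± 5.94 in PaS ko, Meox2, at 3.29 ± 0.214 FPKM in CAR wt, 1.85 ± 0.250 in CAR ko, 51.4 ± 2.25 in PaS wt and 42.7 ± 3.92 in PaS ko, and Prrx2, a homeobox gene related to the one whose promoter drives the Cre, at 11.9 ± 0.761 FPKM in CAR wt, 15.3 ± 1.22 in CAR ko, 82.7 ± 6.40 in PaS wt and 116 ± 8.23 in PaS ko. By genotype 5 of the 25 rose and 2 fell in CAR ko, and 3 rose and none fell in PaS ko. Of all tested genes 6.51% rose and 5.74% fell in CAR ko, and 3.41% and 4.03% in PaS ko. In CAR ko the smallest p-values were those of Osr2 (0.72 ± 0.09, adjusted p = 8.2e-05), Osr1 (0.60 ± 0.11, 0.00161), Meox2 (-0.59 ± 0.11, 0.00169) and Tbx2 (0.45 ± 0.11, 0.00990). The interaction called 1 gene above 0, Osr2 (0.95 ± 0.13, adjusted p = 0.000341), and 1 below, Alx1 (-1.10 ± 0.27, 0.0211). Of all tested genes 3.32% were above 0 there and 3.26% below.

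Retinoic acid is a known inducer of anterior Hox genes, and Cdx factors act upstream of Hox genes in the trunk. Of 22 genes of retinoid handling and the Cdx family, 17 were tested. In CAR wt 5 were higher and 9 lower than in PaS wt, with a median of -0.57, and in CAR ko 1 was higher and 10 lower, with a median of -0.75, beside 20.5% higher and 22.7% lower over all tested genes in wt and 17% and 19.8% in ko. Aldh1a2, which makes retinoic acid, was the gene higher in both, at 210 ± 3.82 FPKM in CAR wt, 209 ± 2.87 in CAR ko, 94.5 ± 6.94 in PaS wt and 94.0 ± 2.64 in PaS ko, a difference of 1.14 ± 0.06 in wt (adjusted p = 2.5e-10) and 1.14 ± 0.06 in ko (adjusted p = 3.1e-10). Lower in CAR cells was Aldh1a3, another enzyme of that step, at 1.63 ± 0.536 FPKM in CAR wt, 1.51 ± 0.115 in CAR ko, 19.4 ± 0.630 in PaS wt and 11.4 ± 2.10 in PaS ko. The retinoic acid binding protein Crabp2 was also lower, at 2.94 ± 0.993 FPKM in CAR wt, 2.45 ± 1.26 in CAR ko, 27.1 ± 0.925 in PaS wt and 37.6 ± 2.37 in PaS ko. So was the receptor Rarb, at 1.72 ± 0.131 FPKM in CAR wt, 2.51 ± 0.226 in CAR ko, 4.46 ± 1.49 in PaS wt and 6.17 ± 1.03 in PaS ko. Aldh1a1 was lower by -1.34 ± 0.14 in wt (adjusted p = 1.1e-06) and -2.01 ± 0.14 in ko (adjusted p = 1.0e-08). Rdh10 and Dhrs3 were higher in CAR wt, by 0.68 ± 0.11 (adjusted p = 8.9e-05) and 0.45 ± 0.09 (adjusted p = 0.00063). Neither passed in the ko pair (adjusted p = 0.217 and 0.473). In CAR ko 4 of the 17 fell, against 5.74% of all tested genes, and none rose: Crabp1 (-1.50 ± 0.21, adjusted p = 0.00021), Stra6, a retinol transporter (-0.67 ± 0.17, 0.0171), Rdh10 (-0.43 ± 0.11, 0.0162) and Aldh1a1 (-0.50 ± 0.14, 0.0276). In PaS ko Aldh1a3 fell (-0.74 ± 0.16, adjusted p = 0.00871). In the interaction 0 of the 17 were above 0 and 2 below, against 3.32% and 3.26% of all tested genes. These were Crabp1 (-1.76 ± 0.30, adjusted p = 0.00192) and Stra6 (-0.99 ± 0.24, 0.0223). Crabp1 was higher in CAR than in PaS cells in wt (0.62 ± 0.21, adjusted p = 0.0274) and lower in ko (-1.15 ± 0.21, 0.000435). Cdx1, Cdx2 and Cdx4 reached at most 0.203, 0.0473 and 0 FPKM.

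Polycomb complexes keep Hox genes silent and Trithorax complexes keep them active. Of 25 tested Polycomb genes 7 were higher and 4 lower in CAR wt than in PaS wt, with a median of 0.11, and 3 higher and 3 lower in the ko pair, with a median of 0.05. These counts were close to or below the share of all tested genes, 43.2% in wt and 36.9% in ko. Bmi1, at 16.7 ± 1.10 FPKM in CAR wt, 19.9 ± 3.40 in CAR ko, 11.0 ± 2.01 in PaS wt and 12.3 ± 0.812 in PaS ko, a subunit of the complex that binds methylated histone H3, was higher in both pairs. By genotype Ezh2, the methyltransferase, fell in CAR ko by -0.38 (adjusted p = 0.0467) and Pcgf5 fell by -0.59 (adjusted p = 0.0331), and no other gene of the list passed there, where 12.3% of all tested genes did. Of 14 Trithorax genes 1 was higher in CAR wt and none in CAR ko, against 20.5% and 17% of all tested genes. That gene, Dpy30, a subunit of the H3K4 methyltransferases, fell in CAR ko by -0.35 (adjusted p = 0.00909). None of these chromatin genes was called in PaS ko. In the interaction Ezh2 (-0.70 ± 0.16, adjusted p = 0.0187) and Dpy30 (-0.49 ± 0.11, 0.0160) were the only ones called, against 6.58% of all tested genes.

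Signals of other cells moved with these groups and are set here beside the Hox results. The summed FPKM of 27 blood cell markers was 13861 to 15836 in CAR wt, 6795 to 7045 in CAR ko, 25896 to 29121 in PaS wt and 10868 to 11442 in PaS ko, and no marker was at 0 throughout a group. For 12 markers of blood stem and progenitor cells, which express several Hox genes of cluster A and B, the sums were 55.1 to 69.1, 24.4 to 29.4, 58.7 to 70.6 and 47.8 to 56.5 FPKM, with Slamf1 at 0 in all PaS ko libraries. The CAR and PaS ranges of this list overlapped in wt and not in ko. Summed endothelial markers were 26.4 to 28.4, 33.7 to 37.9, 95.3 to 107 and 86.5 to 94.8 FPKM. Summed osteoblast markers were 23046 to 24613, 36215 to 44401, 2906 to 3230 and 4576 to 5042 FPKM. Summed chondrocyte markers were 1258 to 1370, 1774 to 1851, 3133 to 3405 and 2605 to 2831 FPKM, with Matn1 at 0 in all CAR wt libraries. Of the 10 tested chondrocyte markers 7 were called higher and 1 lower in PaS ko than in PaS wt, with a median of 1.02, although their sum was lower there. Over all tested genes 3.41% were higher and 4.03% lower in PaS ko. In CAR ko 4 of these markers were called higher and 4 lower, against 6.51% and 5.74% of all. The interaction called 2 above 0 and 6 below, against 3.32% and 3.26%. The part of these cells in the Hox differences was not tested.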

How the data were processed

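RNA from sorted CAR and PaS cells was enriched with oligo dT beads and made into SMART-Seq v4 libraries, per the labels' protocols. The submitters' processing notes name bcl2fastq 2.17.1.14, TopHat2 2.0.14, Cufflinks 2.2.1, Cuffnorm 2.2.1, Cuffdiff and mm10; the annotation, strandedness and filters are not given in the sources used here. The authors deposited FPKM per gene symbol, 1 table per library, per the file headers. No counts are given, so the absolute depth is unknown.

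The 12938 genes that reached 1 FPKM in 3 or more of the 12 libraries were tested as log2(FPKM + 1) in a model of 4 groups, using R 4.3.3 and limma 3.58.1 (eBayes with a trend; two-sided), with Benjamini-Hochberg adjustment over all 12938 and 8 residual degrees of freedom. No 2 libraries were identical. The procedure was tested on simulated data. Tables and figures used Python 3.11.15, pandas 2.3.3 and matplotlib 3.10.9.

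The 38 Hox symbols described matched RefSeq symbols of GRCm38.p6, the source of coordinates and promoters. Values per library are given for genes called in any contrast, the 3 highest of each cluster and Hoxc8 to Hoxc11; other lists are given by counts and up to 4 genes of smallest p, beside Ebf1, genes of the clusters and genes named for their role. The genes and lists were chosen with earlier results of these data known. A few genes of the family and lists are not reported here, and counts and sums leave them out. Alternatives were pseudocounts of 0.1 and 5, no filter, a filter at 5 FPKM, quantile normalization, scaling by median ratios, weighted libraries, only the groups compared, the replicate number as a block, zeros beside 100 FPKM as missing, and leaving out each library. The 8 ATAC-seq samples were not analysed here.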

Additional observations from a re-analysis of the deposited data

How the results depend on the processing

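No direction of a called Hox gene reversed in any alternative. The count of Hox genes called between CAR wt and PaS wt (10) was 5 with a filter at 5 FPKM, which leaves 10 Hox genes to test. It was 6 to 10 when each library was left out, with 6 without CAR wt replicate 2 and 6 without PaS wt replicate 1. Without a filter it was 12 of 37, with 8 of the 10 kept. It was 12 with quantile normalization and 7 of 17 when only the groups compared were fitted. Between CAR ko and PaS ko (5) it was 9 without a filter, with 4 of the 5 kept, and 3 with a filter at 5 FPKM. It was 7 with quantile normalization and 4 to 7 when each library was left out. Quantile normalization moved the wt split from 6 higher and 4 lower to 9 higher and 3 lower. The genotype contrasts and the interaction kept a count of 0 in every alternative. Scaling by median ratios moved the summed levels of the clusters by less than 1 SD.

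Replicate numbers were not taken to pair the libraries, since not every same-numbered pair correlated above 0.1. Deviations of same-numbered libraries correlated at -0.041 to 0.178, against -0.132 to 0.0926 for libraries of other numbers. Of 12 libraries, 7 correlated best with their own number. The highest correlations, at 0.178, 0.130 and 0.108, were all of same-numbered libraries, so this rule does not show that the numbers carry no pairing. With the replicate number as a block the counts were 0, 0 and 0 for the genotype contrasts and the interaction, 10 for the wt pair and 6 for the ko pair. In the wt pair Hoxc6 was lost (adjusted p = 0.0590) and Hoxb7 gained (0.0462), and in the ko pair Hoxa4 was gained (0.0403).

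Values near 1 FPKM rest on few reads, and without counts no interval from counting can be given, so the low genes of clusters B and D are the least certain.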

Other observations

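The microRNA genes of the Hox clusters were listed at 0 in all 12 libraries for Mir10a, Mir10b, Mir196a-1, Mir196a-2 and Mir615. Mir196b, in cluster A, was listed at 92.0 FPKM in CAR ko replicate 1 and 87.3 in CAR ko replicate 3 and at 0 in the other 10 libraries. A hairpin is short, so few fragments give a high FPKM.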
